A study of Mus musculus with 17 samples.

Results

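The IGF system genes measured here were *Igf1*, the receptors *Igf1r* and *Igf2r*, and the binding protein genes *Igfbp2*, *Igfbp3*, *Igfbp4*, *Igfbp5*, *Igfbp6* and *Igfbp7*, 9 of the 56691 genes in a table of read counts from cultured mouse astrocytes. They were chosen by gene symbol after their values in these same libraries were known, so their levels are a description and the tests on them are not independent evidence. Astrocytes of C57BL/6 mice at postnatal day 2 were purified from brain without the olfactory bulbs and cerebellum by immunopanning, in which antibody-coated dishes first remove CD45- and O4-positive cells and a dish coated with anti-HepaCAM then retains astrocytes. In one experiment, 3 cultures received SAG (500 ng/ml), a small molecule that activates Smoothened and so the SHH pathway, and 3 received its solvent DMSO, from day 3 in vitro for 3 days. In the other, 4 cultures received FGF2 (50 ng/ml), 3 received FGF10 (50 ng/ml) and 4 received PBS, from day 2 for 7 days. All cultures were enriched for astrocytes and grew without serum, which limits them as a model of astrocytes in tissue. The 17 libraries read the 3ʹ end of poly(A) RNA and held 17481727 to 68342287 counts each, so a level in CPM, the count scaled to the size of its library, does not scale with transcript length.

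IGF1 is a secreted growth factor that signals through IGF1R, a receptor tyrosine kinase whose adaptors pass the signal to PI3K and AKT. IGF2R, also the cation-independent mannose 6-phosphate receptor, takes up IGF2 for degradation and sorts lysosomal enzymes. The IGF-binding proteins are secreted, hold IGFs outside the cell with high affinity (IGFBP7 with low affinity), and can limit or prolong their action, and proteases that cut them release the ligand. In the brain, astrocytes are a known source of IGFBP2.

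In these cultures the receptor gene *Igf1r* had the highest mean of the 9 genes, followed by 4 binding protein genes and *Igf2r*. The ligand gene *Igf1* was low, at no more than 19.6 CPM in any library. Averaged over the 17 libraries, *Igf1r* was at 338 ± 88.4 CPM (SD), *Igfbp2* at 163 ± 121, *Igfbp5* at 114 ± 47.5, *Igfbp4* at 99.3 ± 120, *Igf2r* at 52.1 ± 23.4 and *Igfbp3* at 48.5 ± 34.7 CPM. These 6 genes had reads in every library. The median of *Igfbp4* was only 44.1 CPM, because its high libraries were replicates 3 and 4 of the FGF experiment, as described further on. *Igfbp7*, *Igf1* and *Igfbp6* had means of 6.66, 2.44 and 0.136 CPM, and were at 0 in 4, 8 and 15 libraries. *Igf1r* varied least, by 2.82 times from the lowest to the highest library, and *Igfbp4* most of the 6, by 24.4 times.

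**Figure D1:**
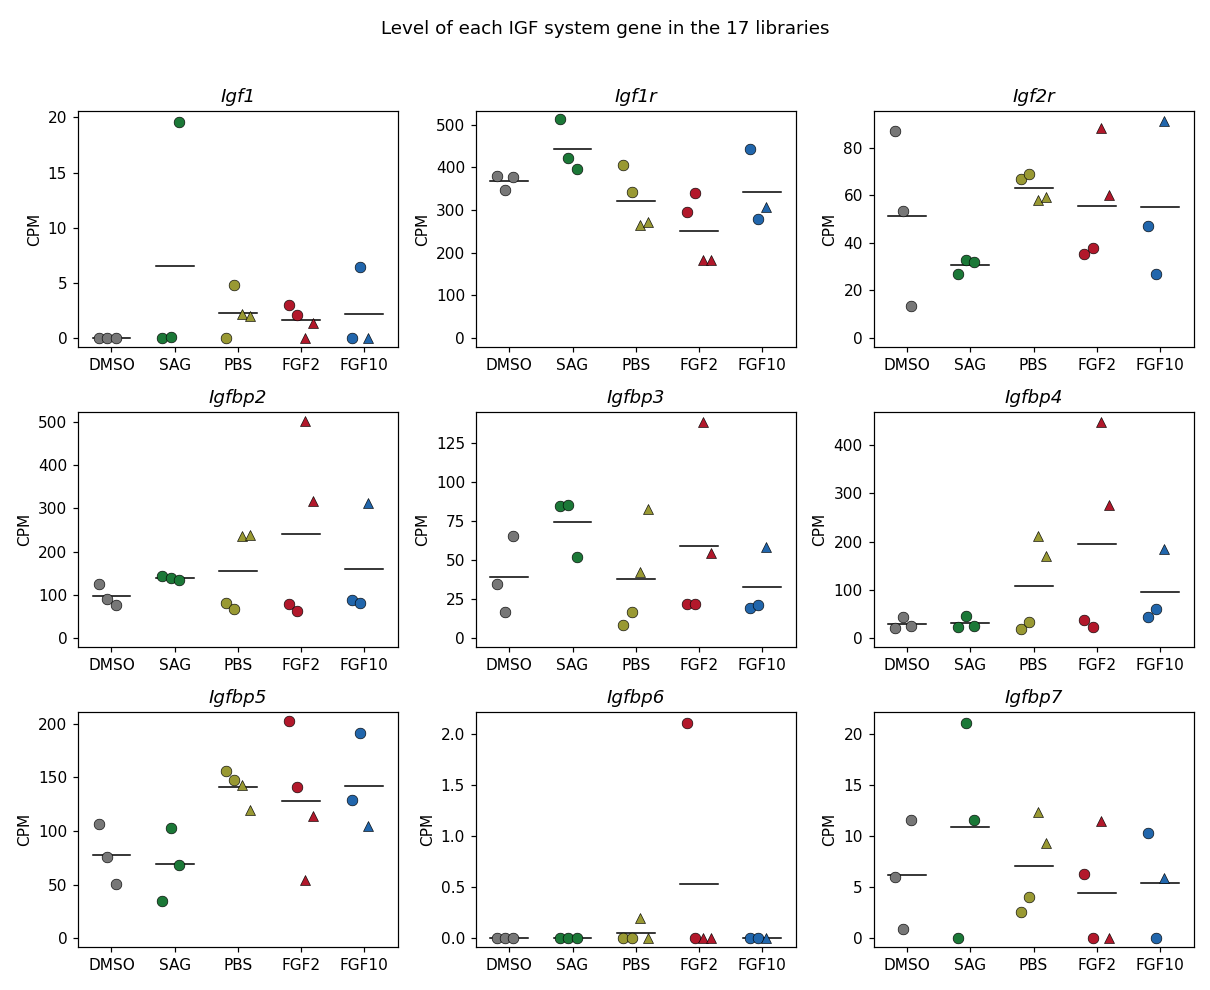
Level of each of the 9 genes in CPM (vertical axis, linear) in the 5 groups (horizontal axis), with 1 point per library and a line at the group mean. Triangles mark replicates 3 and 4 of the PBS, FGF2 and FGF10 groups. In *Igfbp2*, *Igfbp3* and *Igfbp4* all 5 triangles lie above the circles of the same experiment.

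The astrocyte identity of the cultures was checked on 10 marker genes, which all had reads and summed to between 3429 and 5456 CPM per library, led by the glutamate transporter gene *Slc1a3*. Endothelial markers summed to at most 14.5 CPM and microglial or macrophage markers to at most 60.2 CPM, with *Csf1r*, *C1qb*, *Aif1*, *Mrc1*, *Cldn5*, *Cdh5*, *Tie1* and *Emcn* at 0 in all 17 libraries. Ependymal markers summed to 88.4 to 638 CPM, mural markers to 63.2 to 477 CPM and neuron markers to 26.0 to 243 CPM, so RNA of genes that mark other cells was present. Oligodendrocyte lineage markers summed to between 1539 and 2644 CPM. *Olig2*, which astrocytes of some regions also express, had a mean of 1372 CPM (754 to 2215 CPM). The other markers of that list together had a mean of 645 CPM. In bulk RNA, a change in the number of cells of a type and a change in RNA per cell cannot be told apart, and this holds for every level given here.

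The genes lie on 7 chromosomes of the GRCm38 build, and some are neighbors. *Igfbp2* (chr1:72824503-72852474, + strand) and *Igfbp5* (chr1:72857932-72874884, - strand) face each other across 5457 bases with no annotated gene starting between them. *Igfbp3* (chr11:7206086-7213923, - strand) lies 3539 bases from *Igfbp1*, which had no read in any library, and *Igfbp4* (chr11:99041244-99054392, + strand) is far from both on the same chromosome. *Igf1r* (chr7:67952827-68233668, + strand) and *Igfbp6* (chr15:102144362-102149511, + strand) overlap no other annotated gene. *Igf2r* (chr17:12682406-12769664, - strand) overlaps the antisense gene *Airn*, *Igf1* (chr10:87858265-87937042, + strand) overlaps *Igf1os*, and *Igfbp7* (chr5:77349240-77408041, - strand) overlaps *Polr2b* and *Gm34648* on the other strand. The strand setting of the counting is not given in the sources used here, so reads of these 3 genes and of their overlapping partners may not be fully separated.

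The promoters of *Igfbp2*, *Igfbp3* and *Igfbp4* are shown because these 3 genes differed together between sets of replicates, as described further on. Each is the 250 bases before the RefSeq transcript start (build GRCm38.p6), 5ʹ to 3ʹ on the strand of the gene, at chr1:72824230-72824479 (+), chr11:7213924-7214173 (-) and chr11:99040994-99041243 (+). Capitals mark matches on either strand to 4 letter strings, the TATA box TATAAA, the GC box GGGCGG, the FOXO string GTAAACA and the GLI string GACCACCCA.
Igfbp2: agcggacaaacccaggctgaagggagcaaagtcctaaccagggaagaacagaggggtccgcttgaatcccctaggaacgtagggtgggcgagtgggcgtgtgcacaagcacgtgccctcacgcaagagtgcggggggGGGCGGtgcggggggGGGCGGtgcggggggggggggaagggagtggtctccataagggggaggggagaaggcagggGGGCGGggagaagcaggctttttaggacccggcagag
Igfbp3: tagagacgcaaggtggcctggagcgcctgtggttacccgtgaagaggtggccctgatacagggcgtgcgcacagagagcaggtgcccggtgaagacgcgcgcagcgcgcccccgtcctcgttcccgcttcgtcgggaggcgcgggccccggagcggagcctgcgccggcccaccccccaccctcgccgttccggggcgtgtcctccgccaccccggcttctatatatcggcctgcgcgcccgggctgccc
Igfbp4: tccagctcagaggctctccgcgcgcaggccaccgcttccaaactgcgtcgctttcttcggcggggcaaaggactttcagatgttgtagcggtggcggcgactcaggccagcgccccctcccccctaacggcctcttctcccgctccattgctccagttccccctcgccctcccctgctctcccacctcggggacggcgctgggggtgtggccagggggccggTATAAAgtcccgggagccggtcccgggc
Of the 3 sequences, *Igfbp2* held 3 GC boxes and *Igfbp4* a single TATA box close to the start, and *Igfbp3* held none of the 4 strings. Over 32851 mouse promoters of the same length, 12.4% held the TATA box, 32.7% the GC box, 3.17% the FOXO string and 0.225% the GLI string. GC content was 67.2%, 73.2% and 69.2% in *Igfbp2*, *Igfbp3* and *Igfbp4*, against a median of 52.4% over all promoters. These matches describe the letters of the windows and were not tested as binding sites.

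The question of the first comparison is which of these genes differ when SHH signaling is activated. With SAG, *Igfbp2*, *Igfbp3* and *Igf1r* had higher means than with DMSO, but none of the genes passed the test. *Igfbp2* was at 124, 89.7 and 76.3 CPM in the DMSO libraries and at 143, 138 and 134 CPM in the SAG libraries. The groups did not overlap, and the SAG libraries lay closer together (139 ± 4.66 CPM, n = 3) than the DMSO libraries (96.8 ± 24.8 CPM, n = 3). The log2(fold-change) of *Igfbp2* was 0.54 ± 0.26 (SE), with an adjusted p of 0.936 by edgeR's quasi-likelihood test (Benjamini-Hochberg over all genes tested) and an exact permutation p of 0.1, the smallest that 3 against 3 libraries allow.

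*Igf1r* was at 380, 348 and 377 CPM with DMSO and at 515, 421 and 396 CPM with SAG. All SAG libraries were above all DMSO libraries, by a margin that was small beside the spread with SAG (444 ± 62.5 against 368 ± 17.6 CPM, n = 3 each), and the log2(fold-change) was 0.29 ± 0.18 (edgeR, adjusted p = 1.00). *Igfbp3*, the main carrier of IGFs in blood serum, was at 34.5, 16.9 and 65.6 CPM with DMSO and at 84.8, 85.4 and 52.1 CPM with SAG. Its groups overlapped through DMSO replicate 3 and SAG replicate 3, and the log2(fold-change) was 0.95 ± 0.49. It was 0.59 without DMSO replicate 2 and 1.55 without DMSO replicate 3, and that of *Igf1r* was 0.17 without SAG replicate 1.

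The other genes were spread too widely within a group to order SAG and DMSO. *Igf2r* was at 87.2, 53.4 and 13.3 CPM with DMSO, a range that holds all 3 SAG libraries (26.8, 32.8 and 32.1 CPM), and its log2(fold-change) was -0.72 ± 0.61, with -0.11 without DMSO replicate 1 and -1.18 without DMSO replicate 3. *Igfbp4* and *Igfbp5* had log2(fold-changes) of 0.09 ± 0.60 and -0.15 ± 0.43, and each changed sign when certain single libraries were left out. *Igf1* had 608 counts in SAG replicate 3, 3 in SAG replicate 2, and none in SAG replicate 1 or in the DMSO libraries, so no fold is given.

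Of the 9 genes, 7 passed the filter on low counts and 0 were called at an adjusted p under 0.05 by edgeR, where 0.0638% of all 12538 genes were called. None of the 7 had an unadjusted p under 0.05 in edgeR, and DESeq2 called 0. Over all genes, edgeR gave 714 with an unadjusted p under 0.05, and DESeq2 called 398. Groups without overlap were found for 2 of the genes, *Igfbp2* and *Igf1r*, where 14.1% of all genes tested did not overlap. The median log2(fold-change) of the 7 genes was 0.29, against -0.02 over all genes. Summed ependymal markers were 246 to 300 CPM with DMSO and 109 to 160 CPM with SAG, neuron markers 82.8 to 243 and 26.0 to 76.0 CPM, and oligodendrocyte lineage markers 1539 to 2093 and 2248 to 2417 CPM, each without overlap, and cell cycle markers overlapped at 210 to 299 and 272 to 434 CPM. Of the 10 oligodendrocyte lineage markers, only 3 had a higher mean with SAG, although their sum was higher. The part of these shifts in the values above was not tested. P-values here measure the spread between libraries of separate cultures, which the labels do not tie to separate animals.

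**Figure D2:**
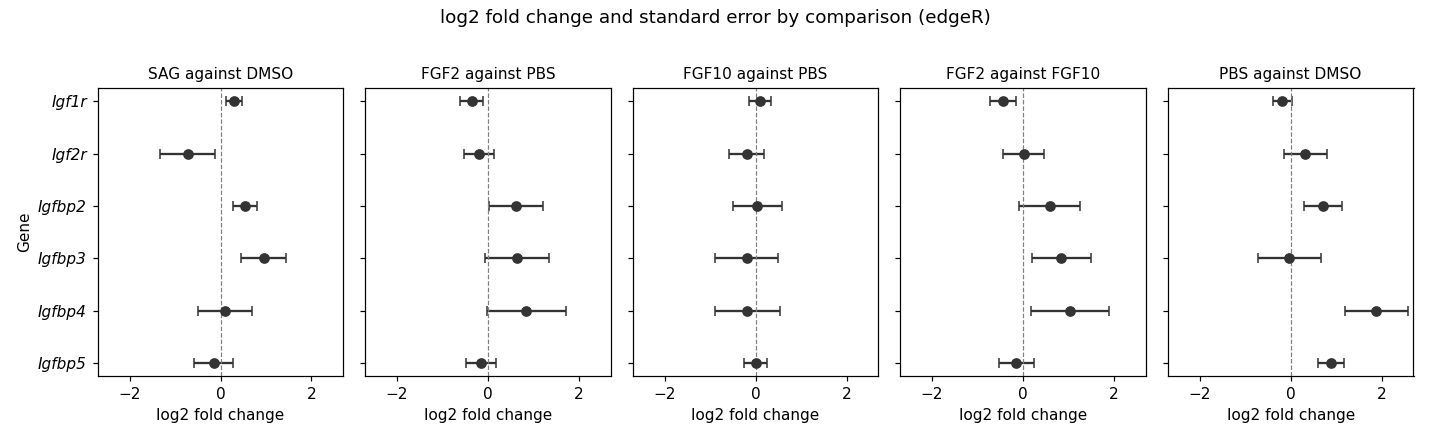
The log2(fold-change) on the horizontal axis, as a point with its standard error as a bar, for the 6 genes with reads in every library (vertical axis) in the 5 comparisons (panels), from edgeR. The widest difference is that of *Igfbp4* between PBS and DMSO, and no gene was called by this test.

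The FGF experiment asks which genes differ when an FGF is added. Part of the genes divided its libraries by replicate number. Replicates 1 and 2 of PBS, FGF2 and FGF10 lay apart from replicates 3 and 4, without overlap, in 3 of the 8 genes tested here and in 4.80% of all genes tested. This division was recognized in these libraries and the labels name no batch, so the difference between the sets is given as values with no test. Later fits use the sets as a term (with PBS, FGF2 and FGF10 fitted together), as subsets or in an interaction. These fits rest on the same division. Their p-values are a description and not independent evidence. *Igfbp4*, a binding protein cleaved by the protease PAPP-A, showed it most. In PBS, its level was 18.4 and 32.5 CPM for replicates 1 and 2 but 212 and 170.4 CPM for replicates 3 and 4. With FGF2 it was at 37.1 and 22.2 CPM in replicates 1 and 2, and at 448 and 276 CPM in replicates 3 and 4. With FGF10 it was at 44.4 and 59.4 CPM in replicates 1 and 2, and at 184 CPM in replicate 3. All 5 libraries of the second set were above all 6 of the first, with a ratio of means of 7.24.

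*Igfbp2* showed the same division, from 63.7 to 87.5 CPM in replicates 1 and 2 (76.3 ± 9.34, n = 6) and from 236 to 501 CPM in replicates 3 and 4 (321 ± 108, n = 5), a ratio of 4.21. *Igfbp3* was at 8.24 to 21.7 CPM in the first set and at 42.5 to 138 CPM in the second, a ratio of 4.15. Among all 14553 genes, 4.80% did not overlap between the sets, and among the 8 genes of the IGF system tested there, these 3 did not overlap, all higher in replicates 3 and 4. *Igfbp5* and *Igf1r* lay the other way with overlap, at ratios of 0.663 and 0.688, and *Igf2r* was at a ratio of 1.52 with overlap.

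The set of replicates also separated the make-up of the binding protein RNA. Summed over the 6 binding protein genes, the level was 248 to 353 CPM in replicates 1 and 2 and 621 to 1153 CPM in replicates 3 and 4. *Igfbp5*, which binds extracellular matrix, made up 44.4% to 58.7% of that sum in the first set and 4.68% to 22.1% in the second. *Igfbp4* made up 6.90% to 16.8% in the first set and 27.4% to 38.8% in the second. Set against *Igf1r*, the summed binding proteins were 0.656 to 1.27 times its CPM in replicates 1 and 2 and 2.17 to 6.30 times in replicates 3 and 4. In the SAG experiment the sum was 228 to 393 CPM and the ratio 0.557 to 0.934, near the first set, but *Igfbp5* made up only 12.3% to 36.4%.

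**Figure D3:**
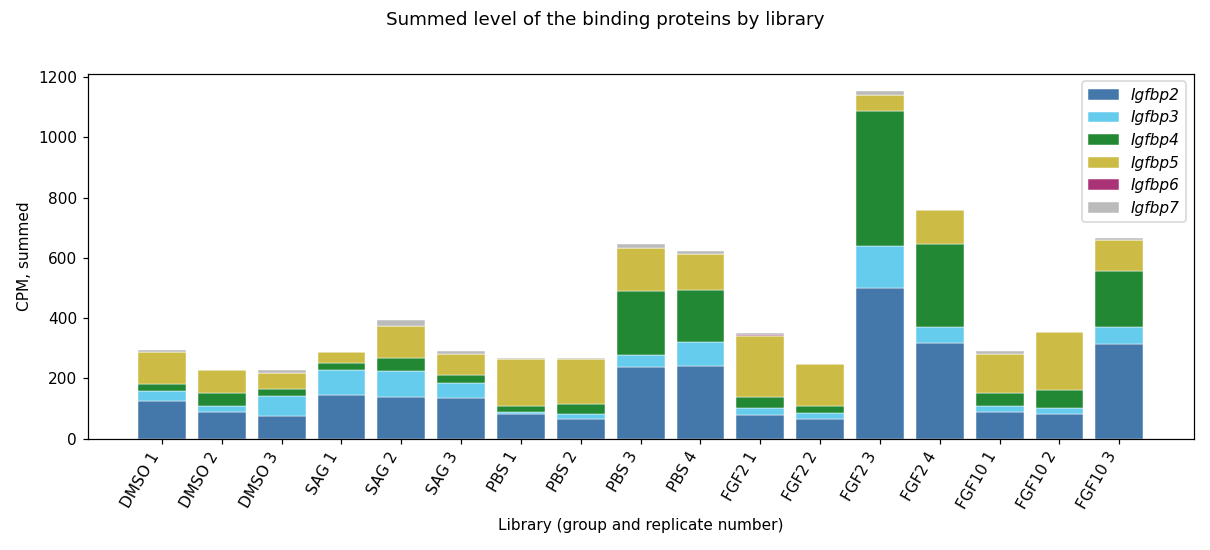
Stacked bars of the CPM of the 6 binding protein genes (vertical axis, summed CPM from 0) in each of the 17 libraries (horizontal axis). The 5 libraries from replicates 3 and 4 of the FGF experiment reach 621 to 1153 CPM, and no other library exceeds 393 CPM.

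Other lists moved with the same division. Cell cycle markers summed to 227 to 402 CPM in replicates 1 and 2 and to 1062 to 1705 CPM in replicates 3 and 4, and 10 of 10 markers had a higher mean in the second set. Oligodendrocyte lineage markers summed to 1546 to 1851 and 2250.1 to 2644 CPM, also higher without overlap, although 2 of the 10 had a higher mean. Astrocyte markers summed to 4628 to 5456 CPM in the first set and 3429 to 3891 CPM in the second, neuron markers to 142 to 222 and 30.9 to 58.2 CPM, mural markers to 217 to 477 and 63.2 to 145 CPM, and ependymal markers to 367 to 638 and 88.4 to 232 CPM. What part these shifts have in the binding protein levels was not tested.

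FGF2 was then compared with PBS. Over all 4 replicates, *Igfbp2*, *Igfbp3* and *Igfbp4* had higher means and *Igf1r* a lower mean with FGF2, and all groups overlapped. *Igf1r* was at 406, 341 (replicates 1 and 2), 264 and 271 CPM (replicates 3 and 4) with PBS and at 295, 339, 183 and 182 CPM with FGF2. It was lower with FGF2 at each of the 4 replicate numbers, narrowly at replicate 2. In CPM the difference was widest at replicate 1 (406 against 295 CPM). The log2(fold-change) was -0.36 ± 0.25 over all libraries (edgeR, adjusted p = 1.00; exact permutation p = 0.229) and -0.39 ± 0.17 with the replicate set as a term in edgeR (unadjusted p = 0.0367, adjusted p = 1).

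*Igfbp2* with FGF2 did not differ from PBS in replicates 1 and 2 by more than the spread (79.0 and 63.7 CPM against 80.8 and 66.2 CPM), but was above PBS in replicates 3 and 4 (501 and 316 CPM against 236 and 239 CPM). Its log2(fold-change) was 0.61 ± 0.60 over all libraries, -0.042 ± 0.34 within replicates 1 and 2 and 0.77 ± 0.25 within replicates 3 and 4 (edgeR, adjusted p = 0.924). *Igfbp4* was at 0.84 ± 0.87 over all libraries, 0.22 ± 0.66 within replicates 1 and 2 and 0.91 ± 0.27 within replicates 3 and 4 (edgeR, adjusted p = 0.924). A test of whether the FGF2 difference itself differed between the sets, chosen after the data were seen, gave 0.81 ± 0.37 for *Igfbp2* and 0.67 ± 0.50 for *Igfbp4* (log2, edgeR, adjusted p = 0.997 and 1.00), so a difference between the sets was not shown. Without FGF2 replicate 3, the log2(fold-change) over all libraries was -0.027 for *Igfbp2*, 0.044 for *Igfbp4* and -0.21 for *Igfbp3*, which was at 0.64 ± 0.70 with that library.

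*Igfbp5* had PBS levels of 156, 147, 143 and 120 CPM, the tightest of its groups, and FGF2 levels of 203, 141, 54.0 and 114 CPM. FGF2 replicate 3 lay below all other libraries of the FGF experiment, and the log2(fold-change) was -0.15 ± 0.33. *Igf2r* was at 66.7, 68.8, 57.9 and 59.4 CPM with PBS and at 35.5, 37.6, 88.3 and 60.1 CPM with FGF2. Its FGF2 levels were below PBS in replicates 1 and 2 and above PBS in replicates 3 and 4, with a log2(fold-change) of -0.89 ± 0.39 in the first set and 0.33 ± 0.37 in the second. The test of that difference gave 1.21 ± 0.54 (edgeR, unadjusted p = 0.0458, adjusted p = 0.997). In the same test 604 of all 12744 genes had an unadjusted p under 0.05.

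**Figure D4:**
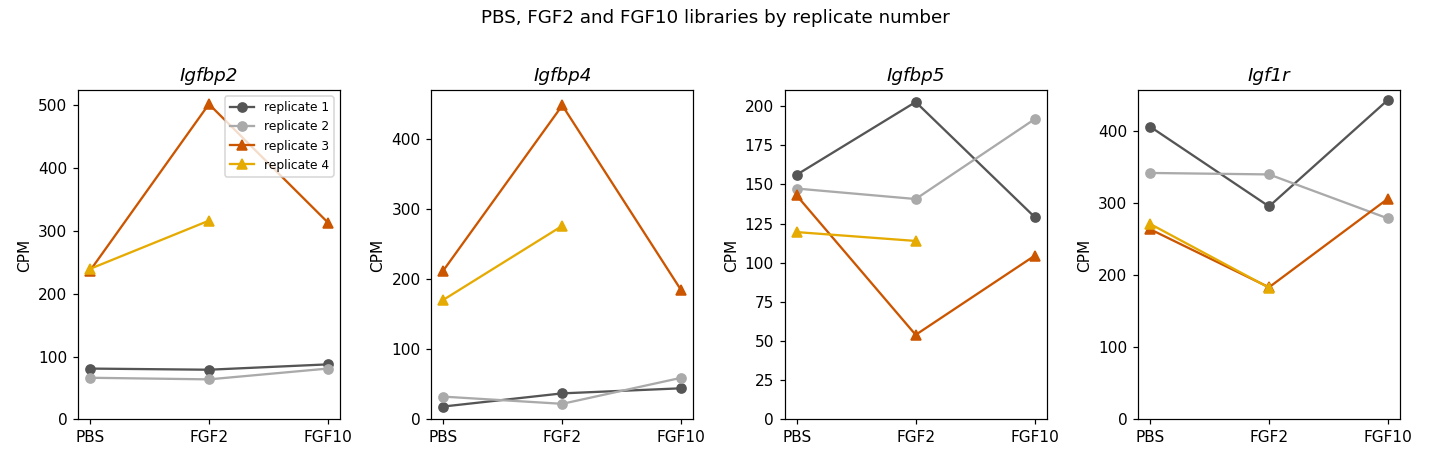
Level in CPM (vertical axis, from 0) of *Igfbp2*, *Igfbp4*, *Igfbp5* and *Igf1r* in the PBS, FGF2 and FGF10 libraries (horizontal axis), with a line joining libraries of the same replicate number. Replicates 3 and 4 (triangles) lie above replicates 1 and 2 (circles) in *Igfbp2* and *Igfbp4* in every group, and *Igf1r* is lower with FGF2 than with PBS at each number.

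FGF10, which mainly activates FGFR2b and was given at the same dose and for the same time as FGF2, was compared with the same PBS libraries, so the comparisons share their controls. Over all libraries the log2(fold-changes) were within their standard errors of 0, at 0.04 ± 0.53 for *Igfbp2*, 0.00 ± 0.26 for *Igfbp5*, 0.10 ± 0.24 for *Igf1r* and -0.20 ± 0.39 for *Igf2r*. Within replicates 1 and 2, *Igf2r* was at 46.9 and 26.9 CPM with FGF10, below both PBS libraries (66.7 and 68.8 CPM), with a log2(fold-change) of -0.88 ± 0.44 (edgeR, adjusted p = 1.00), while FGF10 replicate 3 (91.5 CPM) was above all PBS libraries. *Igfbp4* was at -0.18 ± 0.72 over all libraries and at 0.75 ± 0.32 with the replicate set as a term (edgeR, unadjusted p = 0.0286, adjusted p = 1), and the FGF10 group has no replicate 4. Within replicates 1 and 2, both FGF10 libraries (44.4 and 59.4 CPM) were above both PBS libraries (18.4 and 32.5 CPM), and the log2(fold-change) was 1.02 ± 0.53. *Igfbp3* turned in the same way, from -0.20 ± 0.70 to 0.39 ± 0.43 with the term.

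FGF2 and FGF10 were also compared directly. *Igf1r* was lower with FGF2 (250.03 ± 79.8 CPM, n = 4) than with FGF10 (342 ± 88.1 CPM, n = 3), at 443, 278 and 306 CPM in the FGF10 libraries. The groups overlapped, and the log2(fold-change) was -0.45 ± 0.29 (edgeR, adjusted p = 1.00), or -0.42 ± 0.19 with the replicate set as a term (unadjusted p = 0.0372, adjusted p = 1 by edgeR). *Igfbp4* had the widest mean difference, 1.03 ± 0.85, which was -0.15 ± 0.33 with the term. Leaving out 1 library moved it between 0.23 (without FGF2 replicate 3) and 1.91 (without FGF10 replicate 3), and moved *Igf1r* to between -0.23 (without FGF10 replicate 1) and -0.64 (without FGF2 replicate 2).

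In each of the 3 comparisons of the FGF experiment, 8 of the 9 genes were tested and edgeR called 0 of them, as it called 0% of all genes. None of the 8 had an unadjusted p under 0.05 in edgeR in any of the 3, and DESeq2 called 0 of them. Over all genes, edgeR gave 223, 305 and 324 genes with an unadjusted p under 0.05 for FGF2 against PBS, FGF10 against PBS and FGF2 against FGF10, and DESeq2 called 120, 104 and 90. No gene of the IGF system was without overlap between groups, where 2.44%, 4.80% and 4.94% of all genes were. The median log2(fold-change) of the 8 genes was -0.17, -0.12 and -0.07, against 0.00, 0.00 and 0.01 over all genes.

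The vehicle cultures of the 2 experiments were compared to show how the levels stand without an agonist. Vehicle, day of addition and length of culture differ together between them and cannot be told apart, and the labels do not say whether the cultures were prepared together. *Igfbp5* was at 107, 76.0 and 50.8 CPM in the DMSO libraries and at 156, 147, 143 and 120 CPM in the PBS libraries. Every PBS library was above every DMSO library, where 6.41% of all genes did not overlap. The log2(fold-change) was 0.88 ± 0.28, with an unadjusted p of 0.00719 and an adjusted p of 1.00 by edgeR, and an exact permutation p of 0.0286, the smallest that 3 against 4 libraries allow.

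*Igfbp4* had the widest difference, with a log2(fold-change) of 1.88 ± 0.69 (edgeR, unadjusted p = 0.0162, adjusted p = 1.00) and an exact permutation p of 0.343. Only PBS replicates 3 and 4 lay above the DMSO libraries (21.6, 44.1 and 24.2 CPM), while PBS replicates 1 and 2 were within or below their range (18.4 and 32.5 CPM). Without the filter on low counts the same test called *Igfbp4* (adjusted p = 0.000542), with 0.185% of 19491 genes called. *Igf1* had no reads in the DMSO libraries and 0, 171, 76 and 62 counts in the PBS libraries. *Igf1r* was at -0.18 ± 0.20 and *Igfbp2* at 0.71 ± 0.42 on the log2 scale. EdgeR called 0 of the 8 genes tested, as it called 0% of all genes, with 3 of the 8 (*Igfbp4*, *Igfbp5* and *Igf1*) at an unadjusted p under 0.05, and DESeq2 called 0. Over all genes, edgeR gave 580 of 13271 with an unadjusted p under 0.05, and DESeq2 called 193. The median log2(fold-change) was 0.32 over the 7 genes with reads in both groups, against 0.02 over all genes.

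Ordered by group mean, *Igf1r* ran from SAG (444 CPM) over DMSO (368), FGF10 (342) and PBS (320.4) to FGF2 (250.03 CPM). *Igfbp5* ran from FGF10 (142 CPM) and PBS (142) over FGF2 (128) to DMSO (77.8) and SAG (69.1 CPM). Neighbors in these orders overlapped, except SAG and DMSO for *Igf1r*. For *Igfbp2*, *Igfbp3* and *Igfbp4* the step between neighboring groups was below the larger of their SDs, except between SAG and DMSO in *Igfbp2*, the only neighbors without overlap.

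*Igfbp7* and *Igfbp6* were low. *Igfbp7* was at 0 in SAG replicate 1, FGF2 replicates 2 and 4 and FGF10 replicate 2, and reached 21.0 CPM (1414 counts) in SAG replicate 2, so that a group held libraries with no read beside libraries with many. *Igfbp6* had reads in only 2 libraries, 114 counts in FGF2 replicate 1 and 7 in PBS replicate 3. *Igf1* in the FGF2 libraries had 163, 36, 0 and 57 counts, and in the FGF10 libraries 0, 314 and 0 counts. Its highest library was SAG replicate 3, at 19.6 CPM.

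The pathway around these genes was followed in 55 further genes in 6 lists. Of the other ligands and receptors, *Igf2*, *Ins2*, *Insrr* and *Igfals* had no read in any library, and the insulin receptor gene *Insr* was at 9.04 to 48.6 CPM. The protease gene *Pappa2* and the urokinase gene *Plau* were also at 0 in all 17 libraries, as were *Igfbp1*, *Ccn3* and *Esm1* among relatives of the binding proteins. *Pappa*, the gene of PAPP-A, had a mean of 0.900 CPM and was at 0 in 11 libraries. Of the 55, 39 to 43 were tested in each comparison, and edgeR called 0 in every comparison, with 1, 0, 0, 1 and 1 at an unadjusted p under 0.05 in the order SAG, FGF2 and FGF10 against vehicle, FGF2 against FGF10 and PBS against DMSO. DESeq2 called *Igf2bp1* in the comparisons of FGF2 with PBS and with FGF10 and none of the 55 in the other comparisons. *Igf2bp1* did not pass the filter of edgeR and had reads in only 2 libraries, both FGF2, with 15 libraries at 0.

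Partners with the smallest unadjusted p are given by name. With SAG, *Igfbpl1*, which encodes a secreted relative of the binding proteins, was at 34.4 ± 16.2 against 77.3 ± 35.9 CPM with DMSO (n = 3 each, log2(fold-change) -1.14 ± 0.50). With FGF2, *Akt2* was at 28.2 ± 7.25 and *Mtor* at 51.2 ± 10.2 CPM, against 47.7 ± 16.0 and 29.9 ± 12.6 CPM with PBS (n = 4 each). With FGF10 (n = 3), the protease gene *Htra1* was at 6.59 ± 8.89 against 23.1 ± 9.56 CPM with PBS. None of these differences passed the test in edgeR. Between FGF2 and FGF10 they were the adaptor gene *Grb14*, at 0 in all 4 FGF2 libraries and 3.27 ± 3.52 CPM with FGF10, and *Igf2bp2*, at 17.9 ± 4.91 and 3.65 ± 3.19 CPM. Between PBS and DMSO they were *Ccn1*, at 35.7 ± 13.4 and 79.9 ± 12.7 CPM, and *Rps6kb1*, at 52.2 ± 29.7 and 95.0 ± 33.2 CPM.

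Between the sets of replicates of the FGF experiment, 7 of the 44 partners tested did not overlap. In replicates 3 and 4, *Stc2*, which encodes an inhibitor of PAPP-A, was at 5.61 to 16.4 CPM, against 0 to 0.676 CPM in replicates 1 and 2. *Grb10*, an adaptor that restrains IGF1R and insulin receptor signaling, was at 55.2 to 81.9 against 3.67 to 19.2 CPM. *Plat*, *Pik3r1* and *Igf2bp3* were also higher without overlap, at ratios of means of 1.35, 1.54 and 2.50. *Igfbpl1* was lower, at 9.95 to 40.3 against 102 to 194 CPM, and *Ccn2*, a matrix-associated relative, was at 0 to 8.70 against 36.4 to 82.4 CPM. The share of partners without overlap is to be read against the 4.80% of all genes.

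For each member with a mean of at least 50 CPM, the genes most like it over the 17 libraries were found among 9069 genes by Pearson's r of log2(CPM + 1). These values describe libraries that share treatments and replicate sets. *Igfbp4* was most like *Prc1*, which encodes a protein of the dividing cell's spindle midzone (r = 0.96 over 17 libraries and 0.93 over the 12 without replicates 3 and 4 of the FGF experiment), and *Rpl22l1* (0.93, and 0.56 over the 12). *Igfbp2* was most like *Atp5g3* and *Lgals1* (0.95 each, and 0.73 and 0.68 over the 12). *Igfbp5* was most like *Irx1* and *Neat1* (0.84 and 0.83), with 0.82 and 0.94 over the 12. *Igf1r* was most like *Tagln* and *Sox1ot* (0.86 and 0.85, and 0.62 and 0.68 over the 12), and *Igf2r* most like *Snrpc* and *Nectin2* (0.80 and 0.79, and 0.82 and 0.79 over the 12). Between *Igfbp2* and *Igfbp4* r was 0.87 over the 17 libraries and -0.05 over the 12, whereas *Igfbp2* and *Igfbp3* were at 0.73 and 0.68.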

How the data were processed

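The authors aligned 3ʹ-end reads (QuantSeq V2 FWD, BC1 transcripts removed) with STAR, which also gave the counts per gene. The deposited values are whole-number counts that were not normalized. Per the labels the build is GRCm38. The annotation, strand setting and use of molecular identifiers are not given in the sources used here. PCR copies may therefore be counted, which adds to the spread of low genes. Groups and replicate numbers came from the sample titles. The SAG columns of the table are headed with Shh, and all 4 FGF2 libraries of the labels were used although the methods speak of 3.

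The 114 spike-in rows (at most 86 counts in a library) were left out. The test was run in edgeR 4.0.16 under R 4.3.3 (filterByExpr, minimum count 10 and total 15, TMM, quasi-likelihood test without covariates, Benjamini-Hochberg over all genes, called at an adjusted p under 0.05), fitting only the groups compared. DESeq2 1.42.0 was an alternative. Standard errors came from the F statistic, and the fit was tested on simulated data. Levels are CPM with TMM over the 17 libraries. Exact permutation tests were two-sided on CPM. Total counts per library, 17481727 to 68342287, make 3 counts under 1 CPM. What part culture, library preparation and depth have in the spread between libraries was not tested. A fold is given only where every library of the comparison had more than 3 counts.

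The genes and lists were chosen with earlier results of these data known. All 9 members are named, and of the partner genes those at an adjusted p under 0.05 or otherwise the 2 of smallest unadjusted p per comparison, of which 1 is not reported here. Same-numbered FGF2 and PBS libraries deviated together from their group means (correlation over genes 0.114 to 0.133 in 4 of 4 pairs). Only 2 of the 4 FGF2 libraries correlated best with their own number, and the others with the other number of the same replicate set. Pairing by number and the shared set could therefore not be told apart, and the main test used no pairing. In the other comparisons the lowest correlation of a same-numbered pair was 0.0757 or below. The alternatives were DESeq2's size factors, no filter, DESeq2's Wald test, all 5 groups in one fit, a replicate block, each library left out, the replicate set as a term or within a set, and the study's threshold (adjusted p under 0.01, absolute log2(fold-change) above 1). The fits with the replicate set as a term held the PBS, FGF2 and FGF10 libraries together. Gene positions came from GENCODE vM21 and promoters from RefSeq (GRCm38.p6), in which 9 of 9 symbols matched.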

Additional observations from a re-analysis of the deposited data

Results flagged for a closer look

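In each group of 4 libraries the highest and lowest library were compared with the rest by Dixon's criterion, which chance meets in about 1 of 20 groups of normally distributed values. Of 18 groups examined, 2 met it, both for *Igfbp6*. *Igfbp6* in PBS replicate 3 was at 0.198 CPM (7 counts) while the other PBS libraries were at 0. In FGF2 replicate 1 it was at 2.11 CPM (114 counts) while the other FGF2 libraries were at 0. Where all other libraries of a group are at 0, any count meets the criterion, so these flags show only that reads were present.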

How the results depend on the processing

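No gene of the IGF system was called under any alternative except *Igfbp4* between PBS and DMSO, where the fit without the filter called 1 gene (log2(fold-change) 1.88); the cause was not tested. Of 414 recomputed log2(fold-changes), 354 kept their direction and side of the threshold and 59 changed sign, 36 of these with a library left out. The replicate block called 0 of these genes in each comparison, and over all genes 12 in place of 8 for SAG against DMSO and 0 in the others. In FGF2 against PBS the block gave 0.35 for *Igfbp2*, 0.72 for *Igfbp3*, 0.57 for *Igfbp4*, -0.28 for *Igfbp5*, -0.39 for *Igf1r* and -0.29 for *Igf2r*. It turned FGF10 against PBS to 0.67 for *Igfbp3*, 0.65 for *Igfbp4* and -0.11 for *Igfbp5*, and *Igfbp4* between FGF2 and FGF10 to -0.13. *Igfbp5* in FGF10 against PBS was -0.0072 with DESeq2's size factors, -0.00059 without the filter, -0.0067 in DESeq2 and -0.0020 with all 5 groups fitted. With the replicate set as a term, FGF10 against PBS gave 0.39 for *Igfbp3*, 0.75 for *Igfbp4* and -0.14 for *Igfbp5*, and FGF2 against FGF10 gave -0.15 for *Igfbp4* and -0.071 for *Igf2r*. Within replicates 1 and 2, FGF2 against PBS gave -0.042 for *Igfbp2* and 0.18 for *Igfbp5*, FGF10 against PBS gave 0.68 for *Igfbp3*, 1.02 for *Igfbp4* and -0.054 for *Igf1r*, and FGF2 against FGF10 gave -0.24 for *Igfbp2*, -0.81 for *Igfbp4*, 0.10 for *Igfbp5* and -0.011 for *Igf2r*. Within replicates 3 and 4, *Igf2r* was at 0.33 in FGF2 against PBS.

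With each library left out in turn, the values that changed sign ranged as follows, while others moved by over 1.5 times without a change of sign (*Igfbp4* in FGF2 against PBS from 0.044 to 1.39, *Igf2r* there from -0.51 to -0.026). SAG against DMSO ran from -0.25 to 0.48 for *Igfbp4* and from -0.55 to 0.17 for *Igfbp5*. FGF2 against PBS ran from -0.027 to 0.93 for *Igfbp2*, from -0.21 to 1.39 for *Igfbp3* and from -0.46 to 0.10 for *Igfbp5*. FGF10 against PBS ran from -0.89 to 0.34 for *Igfbp2*, from -0.90 to 0.54 for *Igfbp3*, from -1.07 to 0.37 for *Igfbp4*, from -0.29 to 0.18 for *Igfbp5*, from -0.15 to 0.21 for *Igf1r* and from -0.78 to 0.11 for *Igf2r*. FGF2 against FGF10 ran from -0.067 to 1.51 for *Igfbp2*, from -0.013 to 1.54 for *Igfbp3*, from -0.46 to 0.13 for *Igfbp5* and from -0.32 to 0.59 for *Igf2r*. PBS against DMSO ran from -0.78 to 0.57 for *Igfbp3*, from -0.29 to 1.06 for *Igfbp7* and from -0.14 to 0.94 for *Igf2r*. Over all genes, the unfiltered fit called 76 in place of 8 for SAG against DMSO and 36 in place of 0 for PBS against DMSO, and DESeq2 called 398 and 193. Genes with libraries at 0 cannot be resolved at this spread.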
